A study of Danio rerio and Xenopus laevis and Xenopus tropicalis with 8 samples.

Results

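The genes described here are 215 pairs of Xenopus laevis gene copies, named L and S, whose RNA was abundant enough in the oocyte to place both copies along the animal-vegetal axis. A pair was taken when the same symbol, other than a LOC name, was listed with both endings and when each copy had at least 1000 counts in each of 2 oocytes. The rule left 215 of the 705 symbols listed with both endings, or 430 copies among 31532 entries of the X. laevis tables. Of the other entries, many carry the ending of a single copy, since 6118 entries ended in .L, 3386 in .S and 22028 in neither. The members were chosen by their counts, so levels of the copies are given as a description and without a test. The members nearest to the limit were jup, ssbp1 and cnot6l, with 1011, 1015 and 1028 counts in their lowest copy and oocyte. Just outside lay triap1, irs4 and slc39a9, with 998, 996 and 991.

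X. laevis is an allotetraploid. Its genome joins the genomes of a pair of ancestral frog species, and the chromosomes that descend from them are called L (long) and S (short), so that many genes exist as an L and an S copy, known as homeologs. X. tropicalis is a diploid relative in which a single gene stands opposite such a pair. In the frog oocyte, RNAs such as vegt are anchored at the vegetal pole by signals that often lie in their 3' untranslated regions, and the side of the egg on which an RNA lies can decide which cells of the embryo inherit it.

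The frog samples were untreated mature oocytes, 2 of X. laevis and 2 of X. tropicalis. They came from wild-type animals, shipped as dissected ovary lobes by a stock centre, and were freed with liberase, frozen and cut into serial sections for tomo-seq, in which the RNA of each section receives its own barcode. Nothing in the labels or methods says whether the oocytes of a species came from separate animals, so the p-values speak for these oocytes alone. With 2 oocytes, the spread of a gene was estimated with the help of all rows of a fit. The zebrafish samples of the series were not used here.

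The X. laevis oocytes held 29227123 and 33187809 counts, and the X. tropicalis oocytes 20460221 and 13305606. A section was kept when its total reached 10% of the median total of its oocyte, which left 62 and 72 of 96 sections in X. laevis, and 71 of 96 and 69 of 94 in X. tropicalis. Taken in file order, the kept sections made up 3 regions of the same number of sections, called animal, middle and vegetal. The vegetal region held the fewest counts, 13.9% and 20.4% in X. laevis and 10.8% and 13.2% in X. tropicalis. The order of the sections was compared with RNAs listed as known to lie at the vegetal pole. Of 40 listed genes, 29 passed the test below toward the vegetal and 4 toward the animal region of X. laevis. The list was chosen with earlier results of these data known, so it is not an independent check. No such count is given for X. tropicalis. All 8 X. laevis oocyte markers had counts, 1384 and 1541 CPM in oocytes 1 and 2 (CPM, counts scaled to a total of 1000000). Genes of follicle and connective tissue cells summed to 16.4 and 49.7 CPM in X. laevis and to 0.196 and 0.227 in X. tropicalis, where a single gene of that list was present. Genes of blood cells summed to 215 and 167 CPM in X. laevis and to 1.62 and 0.680 in X. tropicalis. No member is on either list, and the part of such cells in the levels below was not tested.

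The first question was how much RNA each copy gave. Over all members the L and the S copies were balanced. The 430 copies held 7.50% and 7.32% of the kept counts of oocytes 1 and 2, and the L copies took 50.7% and 51.8% of these. L had more counts in both oocytes in 105 pairs, S in 101, and the sign differed between the oocytes in 9. The median log2 ratio of L over S counts was -0.02 in oocyte 1 and 0.10 in oocyte 2. Without the limit on counts, 330 of 705 pairs were higher in L and 308 higher in S, and the median was 0.01. At a limit of 100 counts, 238 of 466 pairs were higher in L and 209 in S, with a median of 0.20. At a limit of 3000 counts, 37 of 76 were higher in L and 35 in S, with a median of 0.07.

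Single pairs were far from balance. The middle 50% of the pairs lay between log2 ratios of -0.71 and 0.77. The ratio was beyond 1 in either direction in 85 pairs, 47 of them toward L and 38 toward S, and beyond 2 in 19 pairs, whereas 68 pairs lay within 0.5 of equal counts. The ratio of a pair was much the same in both oocytes, with a Pearson correlation across the 215 pairs of 0.966 (genes are not independent replicates, and both copies were read from the same libraries) and a median difference between oocytes of 0.17. The pair that moved most between oocytes, by 1.03, was jarid2, which was chosen after its values were seen. L and S of a pair come from different transcript models, and reads were counted near the 3' end, so a ratio can hold differences of annotation as well as of RNA. How reads that fit both copies were counted is not given in the sources used here.

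Among the pairs most tilted toward L was rps3, a protein of the small ribosomal subunit, with 39241 and 35436 counts of L and 5284 and 6236 of S. Others were itgb1 (beta-1 integrin), dbr1 (the enzyme that opens intron lariats), tbl1xr1 (a subunit of nuclear co-repressor complexes) and cnot6l (a deadenylase of the CCR4-NOT complex). Their log2 ratios lay between 2.31 and 2.84 in either oocyte.

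Toward S, epcam, an adhesion molecule of epithelia, had 1226 and 1772 counts of L and 24302 and 23882 of S. Its log2 ratios of -4.31 and -3.75 were the largest of all members in size. For canx (calnexin, a chaperone of the endoplasmic reticulum), L had 1413 and 1641 counts and S 13651 and 13395. The other pairs most tilted toward S were anxa2 (an annexin), nipbl (the loader of cohesin), stmn1 (stathmin, which binds tubulin) and ahcy (adenosylhomocysteinase). In all of these the S copy was above the L copy in both oocytes. Nearest to equal counts were cdc25c, the phosphatase that activates Cdk1, with 2302 and 2608 counts of L and 2408 and 2485 of S, then MGC75753 and rlim. The 3 pairs with the most counts in all were cdk1, the kinase of M phase, cbx3, a heterochromatin protein, and nap1l1, a histone chaperone. For cdk1, L had 41976 and 41879 counts and S 27782 and 18293.

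**Figure D1:**
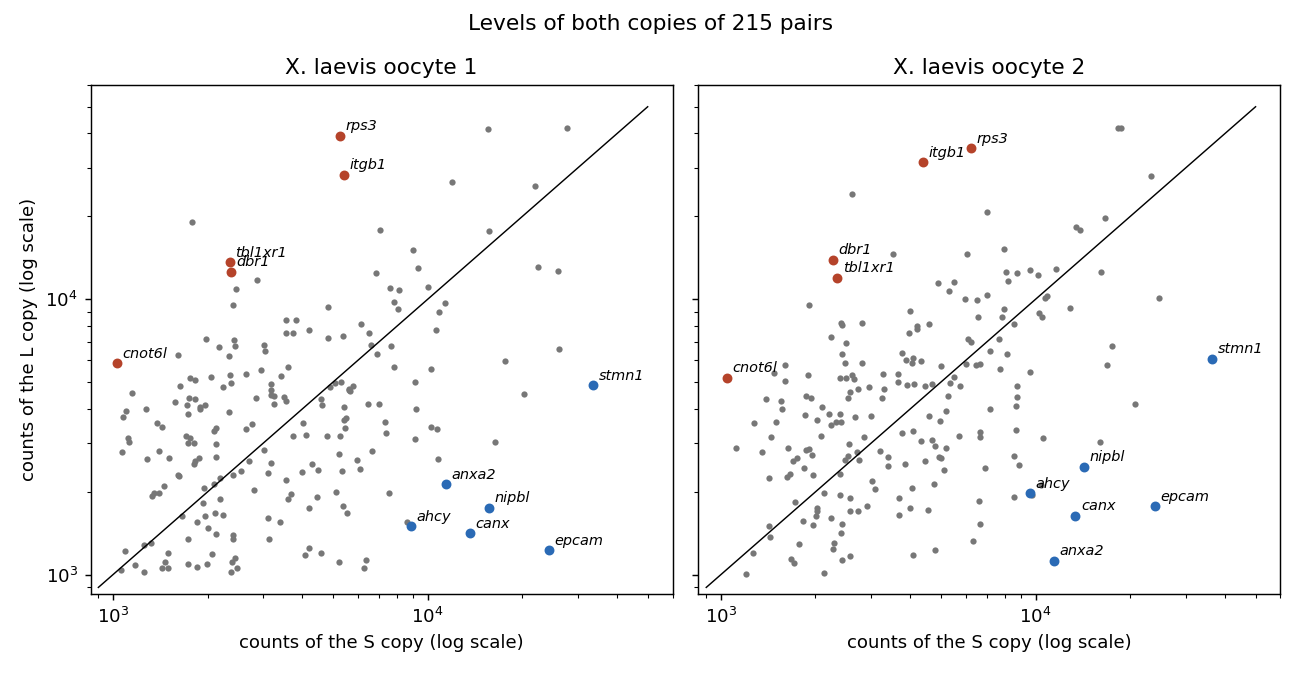
Counts of the L copy against counts of the S copy for the 215 pairs in X. laevis oocyte 1 (left) and oocyte 2 (right), both axes logarithmic, with the line of equal counts. Each point is a pair. Named in red are pairs among the most tilted toward L and in blue the 6 most tilted toward S. In both oocytes rps3 lies far above and epcam far below the line.

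Levels of X. laevis copies and of the X. tropicalis gene with the same symbol could be set side by side for 210 members. Spearman's rho across these genes was 0.51 for the sum of both copies, 0.37 for L and 0.50 for S. It describes ranks only, since the species have separate libraries and genomes and genes are not independent replicates. L and S themselves correlated at 0.39. The symbols rbm8a, tmem214, dbi, bop1 and clasp1 were not matched.

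The second question was where in the oocyte each copy lay. The log2 ratio of the vegetal over the animal region was taken after each region had been scaled to its total. Animal sections gave 37.1% and 29.9% of the kept counts in X. laevis oocytes 1 and 2, more than vegetal sections did. A copy called vegetal therefore made up a larger share of the vegetal than of the animal counts. Such a copy can still have more counts on the animal side. The ratio was tested over all genes by the quasi-likelihood test of edgeR, in which the oocyte was a block, at a Benjamini-Hochberg adjusted p of 0.05. Of the 430 copies, 83 (19.3%) were higher in the vegetal region, where 14.5% of the 17277 genes tested were called, and 115 (26.7%) were higher in the animal region, where 18.6% were called. Members were chosen for high counts. Among 6166 other genes with at least 1000 counts in both oocytes, 14.8% were vegetal and 27% animal. L copies were vegetal in 46 pairs and animal in 59, and S copies in 37 and 56. The median ratio over the member copies was -0.01, against -0.03 over all genes. With DESeq2 the counts were 46 vegetal and 73 animal copies, without the oocyte as a block 30 and 41, and with all sections 24 and 38.

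Both copies were vegetal in 24 pairs, both animal in 34 and neither was called in 77. In 78 pairs a single copy was called, which does not show that its partner lay elsewhere, and in 2 the copies were called toward opposite poles. Across the 215 pairs, the ratios of L and S correlated with a Pearson's r of 0.68 and a Spearman's rho of 0.65. Without vegt and bicc1, the 2 pairs at the vegetal end, r was 0.55 (213 pairs). The difference between the copies was under 0.25 in 111 pairs and under 0.5 in 165, and its median size was 0.24, against 0.30 over all pairs tested.

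Of the 6 pairs at the vegetal end with both copies called, sptssa and aktip passed the test of a difference between the copies described below, and vegt, bicc1, ppp1r3b and fth1 did not. vegt, a T-box factor that specifies endoderm and mesoderm, was the steepest. In the animal region, vegt.L had 31.5 and 40.9 CPM in oocytes 1 and 2 and vegt.S had 19.5 and 23.1. In the vegetal region, vegt.L had 920 and 1165 and vegt.S 473 and 589. L was thus above S in every region and oocyte, while the log2 ratio of vegetal over animal was nearly the same, 4.87 and 4.83 for L and 4.60 and 4.67 for S. The difference between the copies was 0.21 with a standard error of 0.12 (adjusted p = 0.275, edgeR's quasi-likelihood test of the copy by region interaction). The L copy gave between 61.8% and 66.4% of the vegt counts in each of the 3 regions of either oocyte.

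bicc1, an RNA-binding protein with KH domains that takes part in anterior-posterior patterning, had S above L. bicc1.L rose from 17.4 and 13.2 in the animal region to 287 and 163 CPM in the vegetal region, and bicc1.S from 29.9 and 19.6 to 545 and 235. The ratios were 4.05 and 3.62 for L and 4.19 and 3.59 for S, and the copies overlapped (difference -0.06, standard error 0.23, adjusted p = 0.89 from edgeR's test). For ppp1r3b, the subunit that brings protein phosphatase 1 to glycogen, the ratios were 2.05 and 1.89 for L and 2.05 and 1.91 for S. Here the copies differed by -0.01 (standard error 0.15). fth1, the ferritin heavy chain, had ratios of 1.76 and 1.38 for L and 1.93 and 1.17 for S, which overlapped as well. cpeb1, the protein that directs cytoplasmic polyadenylation, is on the list of known vegetal RNAs but neither of its copies was called in X. laevis. Its ratios were -0.15 and 0.16 for L and 0.25 and 0.34 for S. The S copy was just short of the threshold (adjusted p = 0.0503 in edgeR's test) and passed it with TMM factors (0.0233). Of the 8 copies of the 4 listed pairs, 6 were called vegetal, those of vegt, bicc1 and ppp1r3b, and no pair of the list was called different between L and S.

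At the animal end, eif4e3, a member of the family of cap-binding proteins, had the lowest ratios. eif4e3.L had 65.7 and 63.7 CPM in the animal and 13.8 and 22.4 in the vegetal region, and eif4e3.S had 79 and 84.1 in the animal and 10.4 and 11.3 in the vegetal region. Both copies were thus lower in the vegetal region in both oocytes, S more so than L. Next were cox7c, a subunit of cytochrome c oxidase, sept2 (a septin), prickle1 (a protein of planar cell polarity), snu13 (a protein of the spliceosome) and erh. The ratios of sept2 were -1.93 and -1.72 for L and -1.61 and -0.60 for S, and those of prickle1 were -1.89 and -1.36 for L and -1.15 and -1.22 for S. The copies of sept2, prickle1 and snu13 did not pass the test of a difference between L and S, at adjusted p = 0.0866, 0.215 and 0.0564 in edgeR's test, while those of cox7c and erh did.

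The difference between the copies was tested itself. In one fit over all pairs, the copy by region interaction asks whether the vegetal over animal ratio of L differs from that of S. Both copies were read from the same libraries, so the scaling of the libraries cancels. Of the 215 pairs, 45 (20.9%) differed, against 16.4% of all 529 pairs tested and 13.4% of the 314 pairs that are no members. Members were chosen for high counts, so these shares come from pairs of unlike depth. The part of the counts in the higher share was not tested. The median size of the difference was smaller over the members, 0.24, than over all pairs tested, 0.30. L was the more vegetal copy in 27 members and S in 18, where 9.83% and 6.62% of all pairs tested were called in these directions. In all 45 the sign was the same in both oocytes. The test measures spread between these same oocytes, so this largely follows from the call and is no independent check. Of the 215 members, 173 had the same sign in both. Among the 45 the size of the difference was at least 0.33 and had a median of 0.75. In 13 members the size was above 1. Without the oocyte as a block 13 pairs were called, and with all sections 10.

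**Figure D2:**
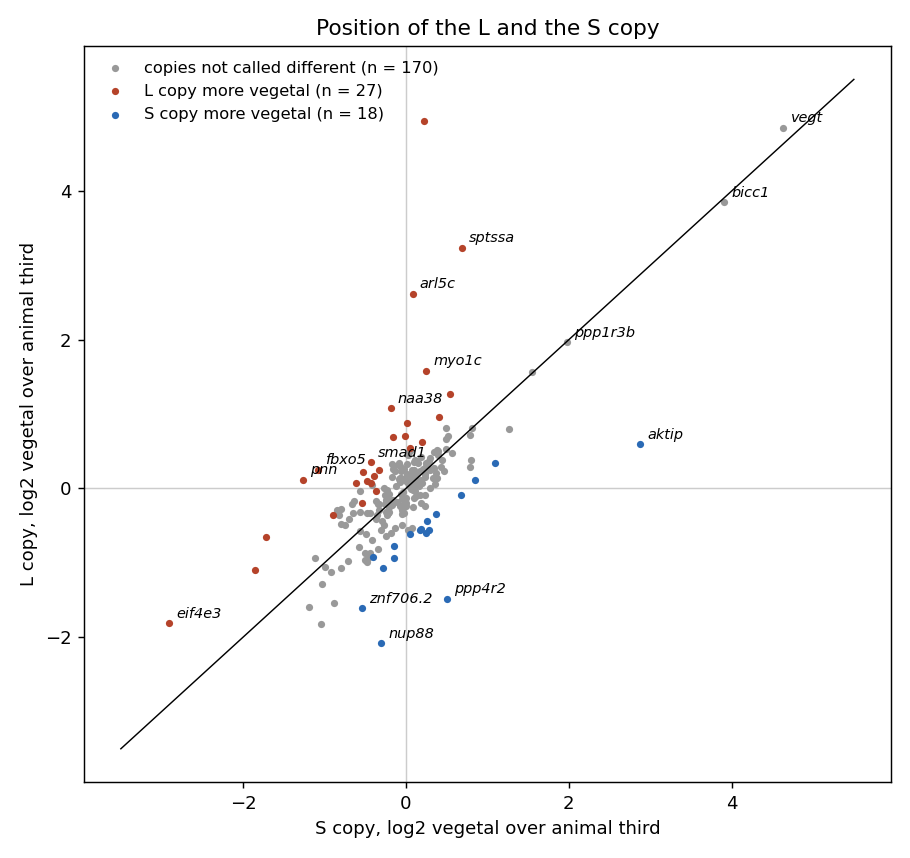
Log2 ratio of the vegetal over the animal region of the L copy against that of the S copy, as fitted over both oocytes, for the 215 pairs. Red points are the 27 pairs whose L copy was more vegetal, blue points the 18 whose S copy was, and grey points the 170 pairs not called different. The line marks equal ratios. vegt, bicc1 and ppp1r3b lie on the line, and sptssa, arl5c and aktip lie far from it.

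sptssa encodes the small subunit of serine palmitoyltransferase, the first enzyme of sphingolipid synthesis. Its L copy had 19.7 and 14.1 CPM in the animal and 168 and 148 in the vegetal region, and its S copy 56.8 and 63.4 in the animal and 93.7 and 99.3 in the vegetal region. S was above L at the animal side and below it at the vegetal side in both oocytes. The difference was 2.55 (standard error 0.17, adjusted p = 1.34e-05). Here the X. tropicalis ratios of 3.34 and 2.74 lay with L, from which they did not pass the test (0.19, adjusted p = 0.564), whereas S was 2.37 lower (adjusted p = 7.9e-06 from edgeR).

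arl5c, a small GTPase of the ARF-like family, showed the reverse placement of X. tropicalis. arl5c.L had 77.4 and 66.7 CPM in the animal and 475 and 411 in the vegetal region, and arl5c.S had 184 and 186 in the animal and 195 and 196 in the vegetal region. L was under S at the animal side and above it at the vegetal side, and S was not called at either pole. The ratios of L were 2.54 higher (standard error 0.12, adjusted p = 1.47e-06). The X. tropicalis ratios were 0.23 and 0.15, close to S (difference of S from X. tropicalis -0.11, adjusted p = 0.638 in edgeR's test).

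aktip encodes a partner of AKT that is also part of an adaptor complex between vesicles and dynein. aktip.L had 45.5 and 50.3 CPM in the animal and 76.9 and 68.2 in the vegetal region, and aktip.S had 49.2 and 40.6 in the animal and 393 and 274 in the vegetal region. Both copies were called vegetal, and the S copy was steeper by 2.28 (standard error 0.18, adjusted p = 3.03e-05). The X. tropicalis ratios of 2.13 and 1.77 lay between those of L (0.76 and 0.44) and S (3.0 and 2.75), and both copies passed the test against them, L lower by 1.37 (adjusted p = 0.000418) and S higher by 0.91 (adjusted p = 0.0044). The call of aktip.L as vegetal was lost with DESeq2 (adjusted p = 0.0522).

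**Figure D3:**
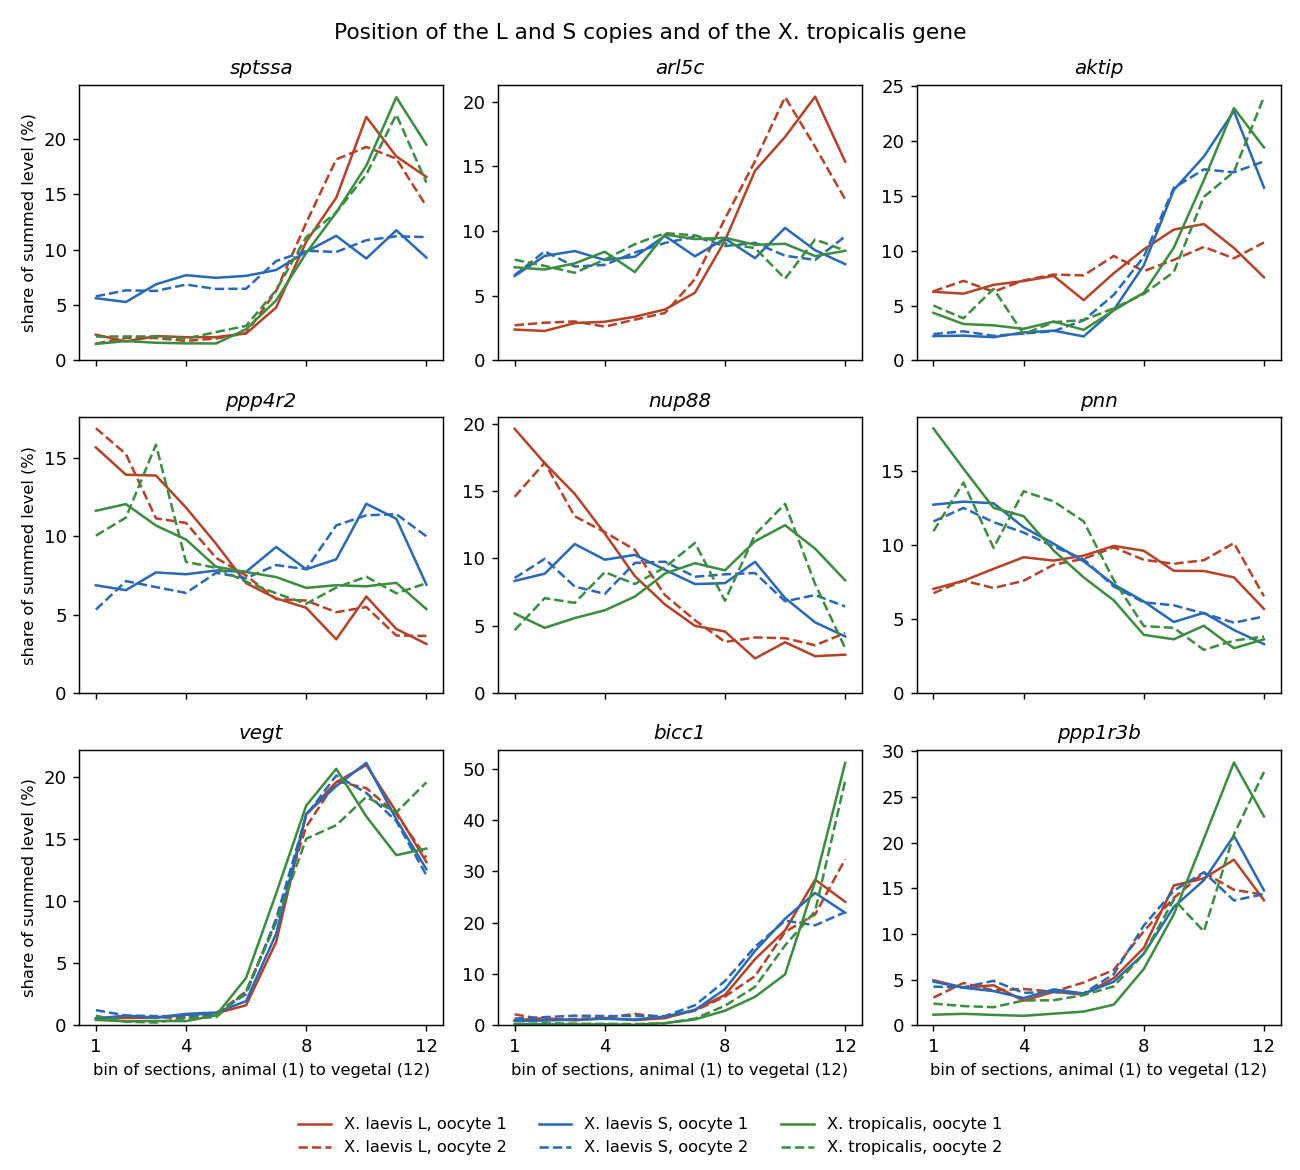
Share of the summed level of a gene in each of 12 bins of the kept sections, from the animal (1) to the vegetal (12) end, after scaling each section to its total. Red lines are the L copy, blue lines the S copy and green lines the X. tropicalis gene, solid for oocyte 1 and dashed for oocyte 2. The copies of vegt and ppp1r3b run together. Both copies of bicc1 climb over the last bins. Its bin 12 held 24.1% of L and 21.9% of S in oocyte 1, and 32.4% and 22.1% in oocyte 2. In sptssa, arl5c and aktip 1 copy climbs over the last bins and the other is flatter.

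In 2 pairs the copies were called toward opposite poles. ppp4r2, a regulatory subunit of protein phosphatase 4, had 83.1 and 88.3 CPM of L in the animal and 27.2 and 34 in the vegetal region, and 172 and 171 of S in the animal and 224 and 264 in the vegetal region. L fell and S rose toward the vegetal pole in both oocytes, and the ratios of L were lower by 1.99 (standard error 0.17, adjusted p = 6.15e-05). The call of ppp4r2.S as vegetal was lost with all sections (adjusted p = 0.538, edgeR) and without the oocyte as a block (0.0861). The X. tropicalis ratios, -0.57 and -0.65, lay between the copies, and both copies passed the test against them, L lower by 0.87 (adjusted p = 0.002) and S higher by 1.12 (adjusted p = 0.000146, edgeR). The other pair, named after its values were seen, was smad1, which carries the signal of bone morphogenetic proteins. Its ratios were 0.24 and 0.46 for L and -0.38 and -0.47 for S (difference 0.78, standard error 0.15, adjusted p = 0.0085).

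nup88, a protein of the nuclear pore, had an animal L copy. nup88.L had 149 and 150 CPM in the animal and 28.4 and 41.8 in the vegetal region, and nup88.S had 55.7 and 58.4 in the animal and 43 and 49.2 in the vegetal region. L was well above S at the animal side and slightly below it at the vegetal side. The ratios of L were lower by 1.78 (standard error 0.21, adjusted p = 0.000493). In X. tropicalis nup88 was called vegetal, with ratios of 0.96 and 0.48, so that both X. laevis copies lay on the animal side of it, L by 2.82 and S by 1.04. Without X. tropicalis oocyte 1 the difference of S was smaller in size, at -0.79. That fit holds a single X. tropicalis oocyte, so only the value is given.

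Of the other pairs in the 12 with the largest differences, pnn, fbxo5, myo1c, naa38 and eif4e3 had the more vegetal L copy, and znf706.2 the more vegetal S copy. For pnn (pinin, of the splicing machinery and the desmosome), L was not called, with ratios of -0.03 and 0.25, and S was animal with -1.40 and -1.13. fbxo5, known as Emi1, the inhibitor of the anaphase-promoting complex, behaved alike, with 0.18 and 0.32 for L and -1.11 and -1.05 for S. The minor copy was the more vegetal one here, as S had 8604 and 10423 counts against 1559 and 2121 of L. In myo1c, a myosin that binds membranes, L was vegetal with 1.42 and 1.74 and S was not called, with 0.14 and 0.35. In naa38, a subunit of the NatC acetyltransferase, L was vegetal with 1.20 and 0.96 and S lay at -0.20 and -0.17. For these 4 pairs the differences lay between 1.27 and 1.38, with adjusted p between 0.000231 and 0.000603 in edgeR's test, and the values of the copies did not overlap between oocytes.

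Both copies of the remaining pairs of the 12 were animal. In eif4e3 the difference was 1.10 (standard error 0.27, adjusted p = 0.0222), with 0.68 in oocyte 1 and 1.39 in oocyte 2, and in znf706.2, a small zinc finger protein, it was -1.07 (standard error 0.12, adjusted p = 0.000315). The 33 pairs beyond these 12 differed by up to 1.06 in size.

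**Figure D4:**
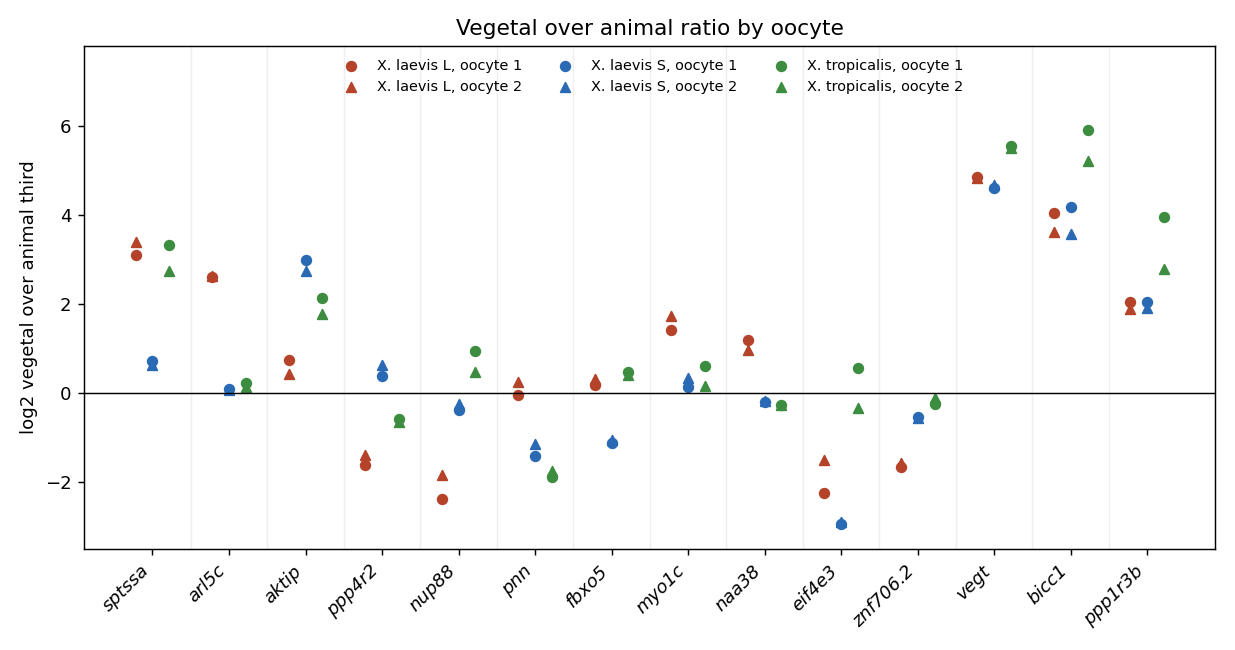
Log2 ratio of the vegetal over the animal region for the L copy (red), the S copy (blue) and the X. tropicalis gene (green) in oocyte 1 (circles) and oocyte 2 (triangles), for 11 of the 12 pairs with the largest called difference between the copies and for vegt, bicc1 and ppp1r3b. In the 11 pairs the red and blue points stand apart in both oocytes. The green points of sptssa lie by L and those of arl5c by S.

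The levels of the copies were set beside their places. In 31 of the 45 differing pairs the copy with more counts was the more vegetal one. That count is not given for all 215 pairs. Across them the log2 ratio of levels and the difference of place had a Spearman's rho of 0.09. Several of the most uneven pairs were not called different in place. Neither copy of epcam was called at a pole, with ratios of -0.30 and -0.14 for L and -0.17 and 0.12 for S, although S had many times the counts of L. The 2 copies of stmn1, also dominated by S, were both animal, at -0.93 and -0.94 for L and -1.08 and -1.15 for S. In rps3 the abundant L copy was vegetal at 0.80 and 0.47 and exceeded S by 0.44 (adjusted p = 0.0403, edgeR). rlim, a ubiquitin ligase with nearly equal counts of both copies, had a vegetal S copy (0.78 and 0.92) and an L copy that was not called (0.13 and 0.10), a difference of -0.74 (adjusted p = 0.00616). Of the 3 most abundant pairs, cbx3 and nap1l1 differed by 0.33 and 0.34 (adjusted p = 0.025 and 0.0403) and cdk1 by 0.07 (adjusted p = 0.659).

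Copies could also differ in the middle of the oocyte without differing between the poles. The middle region was therefore compared with the mean of the outer regions. Of all 546 pairs tested, 5 passed (0.916%) in edgeR's test. At an unadjusted p under 0.05 there were 19 of the 215 members (8.84%), against 53 of all pairs tested (9.71%), and 1 member was among the 5 that passed.

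Functional groups were described by lists of symbols. Respiratory chain subunits lay on the animal side in both copies. Of the 16 copies of 8 pairs, 14 were animal and none vegetal, and of all 80 genes of the list 61 were animal and none vegetal by edgeR's test. The median ratio of the member copies was -0.77, against -0.66 for the list and -0.03 for all genes. In 3 of these pairs the copies differed in degree. For cox7c the ratios were -1.10 and -1.09 for L and -1.74 and -1.94 for S, and L was less animal by 0.76 (standard error 0.14, adjusted p = 0.00656). For sdhd, an anchor subunit of succinate dehydrogenase, L was less animal by 0.53 (adjusted p = 0.0452), and for cox6a1 it was S, by 0.78 (adjusted p = 0.00738). All 4 X. laevis copies and the X. tropicalis genes of cox7c and sdhd were called animal.

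Cytosolic ribosomal proteins leaned slightly the other way. Of the 24 copies of 12 pairs, 8 were vegetal, 16 were not called and none was animal. Of all 97 genes of the list 32 were vegetal and none animal, where 14.5% of all genes tested were called vegetal. The median ratio was 0.19 for the member copies and 0.18 for the list, against -0.03 for all genes. The copies lay close together, with a median size of the difference of 0.09, and rps3 was the only pair of the 12 called different. Vegetal in both copies were rpl4, with ratios of 0.52 and 0.44 for L and 0.58 and 0.56 for S, and rps3a. Of the 14 copies of 7 pairs on the cell cycle list, 3 were vegetal and none animal, while of all 129 genes of the list 17 were vegetal and 27 animal. None of the 7 pairs was called different, on a background of 20.9% of all members, and the median size of the difference was 0.07.

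**Figure D5:**
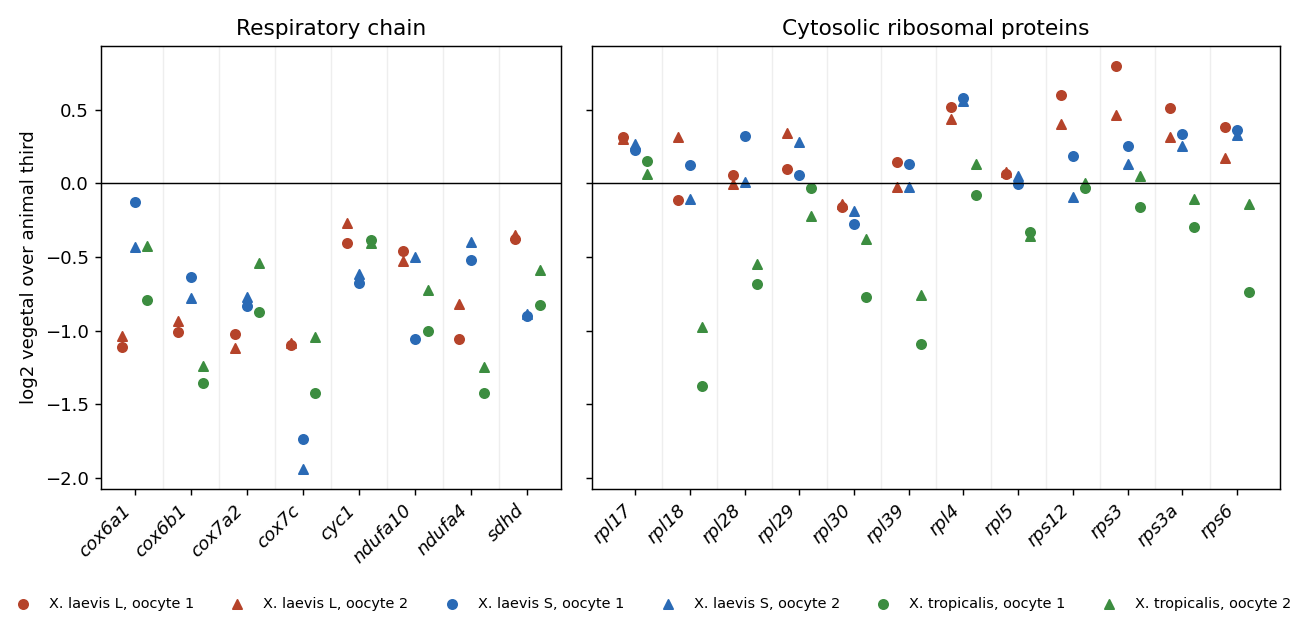
Log2 ratio of the vegetal over the animal region for the copies of 8 respiratory chain pairs (left) and 12 ribosomal protein pairs (right), L in red, S in blue and X. tropicalis in green, oocyte 1 as circles and oocyte 2 as triangles. All X. laevis points of the respiratory chain lie below 0, and most X. laevis points of the ribosomal proteins lie above it.

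Other lists held few members. Their counts are to be read beside 14.5% vegetal and 18.6% animal over all genes tested, and 20.9% of all member pairs that differed. Of the 20 copies of 10 pairs of maternal RNA-binding proteins, 2 were vegetal and 4 animal, and of all 87 genes of the list 13 and 16. The pair rbm5 was the only one called different (0.50, adjusted p = 0.0403 in edgeR's test). Of the 14 copies of 7 pairs caught by the cytoskeleton list, 2 were vegetal and 4 animal, and of all 70 genes of the list 13 and 12. The L copies of tpm4 (tropomyosin) and vimp were the more vegetal ones. vimp is a protein of the endoplasmic reticulum that the symbol pattern caught, and not a part of the cytoskeleton. In translation factors, 4 of 6 copies were animal and 1 vegetal, while of all 61 genes of the list 16 were animal and 10 vegetal, with a median ratio of -0.06. The list of known animal RNAs held no member.

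The third question was which copy lay where the single gene lies in X. tropicalis. For place, only ratios within an oocyte were compared between species, since the level of a gene cannot be compared directly between separate libraries. Of the 209 members tested, the L copy differed from the X. tropicalis gene in 64 (35 more vegetal, 29 less), against 24.9% of the 489 symbols tested, and the S copy in 52 (31 and 21), against 23.1%. The 2 comparisons share the X. tropicalis oocytes. How far these counts depend on single oocytes could not be tested. A fit without 1 oocyte leaves a single oocyte of that species, whose spread is then not measured. The median difference over members was 0.02 for L and -0.05 for S, against 0.06 and -0.01 over all symbols tested, and the median size was 0.35 and 0.29.

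Among the 45 pairs whose copies differed from each other, L alone differed from X. tropicalis in 15, S alone in 11, both in the same direction in 7, both in opposite directions in 2 (aktip and ppp4r2) and neither in 10. A copy that did not pass is not shown to lie where the X. tropicalis gene lies. The split of these pairs and that of the pairs below reuse the ratios that sorted them, so they are not independent of that sorting. Counts over all differing pairs tested are not given. Among the 164 tested pairs whose copies were not called different, both copies differed from X. tropicalis in the same direction in 23, a single copy in 26 and neither in 115. In X. tropicalis itself, 25 of the member genes were vegetal and 36 animal, where 8.81% and 16.2% of all 10506 genes tested were called.

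The L copy, the S copy and the X. tropicalis gene were all vegetal in 11 members, which like those that follow are named after their values were seen. Among them were aktip, bicc1, ccdc69, incenp, itm2a, ppp1r3b, slc20a1, sptssa, vegt and yy1. They hold incenp of the chromosomal passenger complex, the phosphate transporter slc20a1 and the transcription factor yy1. All were animal in 14 members, cox6b1, cox7a2, cox7c, mdh2, ndufa10, ndufa4, polr2k, prickle1, sdhd, sec61g, sept2, snd1, snu13 and stmn1. The 6 of these that are respiratory chain subunits were cox6b1, cox7a2, cox7c, ndufa10, ndufa4 and sdhd, and mdh2 encodes mitochondrial malate dehydrogenase. Counts over all symbols tested are not given, so 11 and 14 describe the members alone.

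In several pairs both copies differed from X. tropicalis in the same direction. In itm2a and eif4e3 the copies were also called different from each other. cirbp, a cold-inducible RNA-binding protein, was not called at either pole in X. laevis, with ratios of 0.01 and 0.23 for L and -0.09 and -0.08 for S, and animal in X. tropicalis, with -2.22 and -1.81. The same held for depdc7, with -0.30 and -0.08 for L, -0.25 and 0.03 for S and -2.29 and -2.03 in X. tropicalis. In these pairs all 4 X. laevis values were above both X. tropicalis values. bicc1 was vegetal in both species and steeper in X. tropicalis, at 5.90 and 5.21, and itm2a was likewise, at 3.23 and 2.39 against 1.37 and 1.18 for L and 0.71 and 0.40 for S. eif4e3 had 178 and 57 counts in the X. tropicalis oocytes, with ratios of 0.56 and -0.34 that fell on either side of 0, against values below -1.5 in both X. laevis copies and both oocytes. vegt, too, was steeper in X. tropicalis, at 5.56 and 5.51, and the differences of L and S from it were -0.69 and -0.91 (adjusted p = 0.00247 and 0.000428, edgeR).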

How the data were processed

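Tomo-seq libraries of 2 X. laevis and 2 X. tropicalis oocytes were analyzed. The authors mapped reads with STAR 2.5.3a, as the methods state, and deposited counts per gene and section, whole numbers that were taken as counts of unique molecular identifiers. The UMI has 6 nt, which allows 4096 sequences. The highest value, 4106 in X. laevis oocyte 2, exceeds this, and the highest of a member was 1652. Copies and X. tropicalis genes were matched by symbol, with no check of orthology. glul and krt18 also have an entry without ending, which was not used.

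Counts of kept sections were summed into 3 regions. edgeR 4.0.16 (R 4.3.3) was run with glmQLFit and glmQLFTest on genes or pairs with at least 10 counts in 2 libraries, with region totals as library sizes. Fits had 1 row per gene (place), 8 columns per pair (L minus S) or 12 (with X. tropicalis), with the oocyte, or gene by oocyte, as a block, and Benjamini-Hochberg adjustment at 0.05 over all rows. Fits were also run on simulated data. There every gene had the same spread and regions were drawn independently, so that run does not show how the tests hold for these oocytes. The block follows from both regions being cut from 1 oocyte. Their deviations from the group means correlated at 0.52 in X. laevis and 0.73 in X. tropicalis. The count behind each member copy and oocyte lay between 1011 and 41976 (median 3598.5). DESeq2 1.42.0, TMM factors, other filters, sections and regions were alternatives.

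Named were the 12 largest called differences, the 6 pairs at either pole, the most and least even levels, the 6 largest shared differences from X. tropicalis, listed vegetal RNAs, the pairs next to the limit and the most abundant pairs, with others named after their values were seen. Members and lists were chosen with earlier results of these data known. No Xenopus sequence or annotation was used here. Results of 2 members are not reported by name here.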

Additional observations from a re-analysis of the deposited data

Results flagged for a closer look

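Members whose copies both differed from the X. tropicalis gene in the same direction, by edgeR's test of the difference between species, are given here for the 6 with the largest differences. In eif4e3 the log2 ratio of the vegetal over the animal region differed from that of X. tropicalis by -2.12 for L (adjusted p = 0.00247) and by -3.21 for S (adjusted p = 0.000158), on 178 and 57 X. tropicalis counts. In cirbp it was higher by 2.16 for L and 1.95 for S, and in depdc7 by 1.97 and 2.05. The differences were -1.57 for L and -2.30 for S in itm2a, -2.82 and -1.04 in nup88, and -1.74 and -1.68 in bicc1. Under this test 19 members had both copies more vegetal and 11 both copies less vegetal than the X. tropicalis gene. Such counts over all symbols tested are not given, so these describe the members alone. Both copies were set against the same X. tropicalis oocytes and read from the same X. laevis libraries, so their calls are not independent.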

How the results depend on the processing

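Without the oocyte as a replicate block, vegetal copies fell from 83 to 30, animal copies from 115 to 41, differing pairs from 45 to 13 (8 with L and 5 with S more vegetal), and members differing from X. tropicalis to 12 for L and 12 for S. With all sections, near-empty ones included, these counts were 24, 38, 10 (7 and 3), 28 and 31. The regions were then cut anew over all sections, so they lay elsewhere than in the main fit. The sections kept in the main fit ran from 10 to 71 in X. laevis oocyte 1 and from 14 to 89 in oocyte 2. DESeq2 gave 46 vegetal and 73 animal copies. Leaving out 1 oocyte in turn, L differed from X. tropicalis in 31 to 58 members and S in 29 to 56. Each of these fits held a single oocyte of 1 species, whose spread was then not measured. Their counts therefore cannot show how far the calls depend on single oocytes, and no conclusion is drawn from them. For place and for L minus S the fit had no residual degrees of freedom without an oocyte, so only values were given. At a limit of 100 counts, with 466 pairs, the median log2 ratio of L over S was 0.20 in place of 0.06.

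The 45 differing pairs were all called again without a filter on low counts. An alternative added after the data were seen left out the sections that stand apart from the rest in X. tropicalis. It took no section from X. laevis, so it could not change the test of L against S. Under it, L differed from X. tropicalis in 65 members in place of 64, and S in 59 in place of 52. Of the 45 differing pairs, TMM factors shared 43, DESeq2 33 and the correction for repeated UMIs 41. A section limit of 25% of the median shared 41, the outer 25% of the sections at either end 39, no block 13 and all sections 10. Of the 12 pairs with the largest differences, 9 were called under all 9 alternatives with a test. These 9 alternatives include the one that could not change the result. fbxo5 and znf706.2 were lost with all sections (adjusted p = 0.0706 and 0.216), and eif4e3 with all sections (0.126) and without the block (0.0793). The placement of aktip.L, ppp4r2.S, sept2.S, erh.L, cox7c.L and znf706.2.S was lost without the block, and the differences of bicc1 (L and S), eif4e3 (L) and nup88 (S) from X. tropicalis as well. With all sections, the placement of aktip.L, ppp4r2.S, sptssa.S, erh.L and znf706.2.S was lost. Among the named copies, calls in edgeR's test were gained for cpeb1.S as vegetal with TMM factors (adjusted p = 0.0233). nup88.S was called animal with the outer 25% of the sections (adjusted p = 0.000848). No called value changed its sign. The uncalled ratios of cpeb1.L and pnn.L, near 0, did so under some settings, as did the median log2 ratio of L over S without X. laevis oocyte 2 (-0.02). The cause of these changes was not tested. With 2 oocytes per species, small differences could not be told from spread.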
